A study of Homo sapiens with 33 samples.

Results

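Genes of the NF-kB system were followed across 4 groups of cDNA arrays: the subunit RELA, the inhibitors NFKBIB, NFKBIE and NFKBIZ, the deubiquitinase CYLD, and the target and survival genes BIRC2, CFLAR, TNFAIP8, IRF1 and SOD2. A spot was taken where 1 of these was its only gene symbol in the platform annotation, which gave 21 of the 34560 spots on the membrane, for 10 of the 10726 genes that have a spot of their own. The arrays are nylon membranes hybridised with radioactively labelled cDNA of THP-1, a monocytic leukaemia line grown in suspension, or of CaCo-2, an adherent epithelial line from a colon carcinoma. Cells of either line were left unstimulated or were given TNF-alpha, an inflammatory cytokine, at 5 ng/ml for 60 min. The 33 deposited columns reduce to 22 arrays, because many columns repeat another one: 5 CaCo-2 control, 5 CaCo-2 TNF, 5 THP-1 control and 7 THP-1 TNF arrays. Both lines are tumour lines. The labels do not tell whether arrays of a group stand for separate cultures, and a p-value here reflects the variation among these arrays alone, part or all of which may be technical.

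NF-kB is a family of dimeric transcription factors that rest in the cytoplasm, bound by inhibitors of the IkB family. When TNF binds its receptor, a chain of ubiquitin-dependent complexes activates the IkB kinase, the inhibitors are degraded, and dimers such as RELA with p50 enter the nucleus and switch on genes of inflammation and survival. Many of those targets restrain the pathway or block cell death, and so close a feedback loop.

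A typical binding site of the factor has 10 bases. In RefSeq promoters of build GRCh38.p14, from 250 bases before to 50 bases after a transcript start, the NF-kB consensus motif was searched on both strands. Many genes have several starts listed, 35116 windows for 27305 genes, and the first listed was taken. The motif was in 1562 of 27305 such promoters, or 5.72%, and in 3 of the 9 members for which a promoter was given, those of NFKBIZ, CFLAR and IRF1. With every listed start searched it was in 5 of the 9 members, NFKBIB and CYLD added, and in 7.09% of all genes. A spot of NFKBIZ was the only member spot called between the lines, and the other spot of the gene was not called. The windows around the 3 matches are shown for that reason and because a motif of this kind is the binding preference of the factor. They are written 5′ to 3′ on the gene's strand, with the match in capitals.
NFKBIZ: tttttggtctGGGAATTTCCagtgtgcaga
CFLAR: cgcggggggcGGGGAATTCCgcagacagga
IRF1: ggccagggctGGGGAATCCCgctaagtgtt
The NFKBIZ window lies at chr3:101827757-101827786 on the plus strand, with the match from base -223 to base -214 relative to the transcript start, which is also where the annotated gene begins. The CFLAR window lies at chr2:201118609-201118638 on the plus strand, with the match from -97 to -88, counted from the first of its 4 listed starts, at 201118716, which lies 2552 bases inside the gene as annotated. The IRF1 window lies at chr5:132490804-132490833 on the minus strand, with the match from -50 to -41 from the only start listed, and it matches on both strands at the same position. A match is a description of letters. These arrays measured no binding.

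Most of these spots were dim, and many read exactly 0. Over all spots, 0 stood at between 32.1% and 39.6% of spots per array, with its meaning not given in the sources used here. The lowest value above 0 was between 0.0921 and 0.136 on single columns, and the median value above 0 was between 0.162 and 0.230, in deposited intensity units. Of the 462 member readings, 124 were at 0 and 3 carried a code for no value, so that 27.0% of the readings with a value were at 0, against 34.4% over all spots. Where an array was deposited a second time at 3 times the scale, taken here as a sum of 3 component values, that sum could be read beside a 0. This was so for 56 of the 124 readings. At 27 of the 56 the sum was 0 as well. At the other 29 it was above 0, between 0.823 and 1.14 times the median of the line's other single-column readings of the spot above 0, whereas the sum of an array with a reading above 0 stands at about 3 times the single column. The single column is the middle one of the 3 component values, so that at these 29 readings the sum has the size of 1 component and the other components were at 0. Readings of 0 were left out of the fit, and for every spot the arrays above 0 are counted.

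NFKBIZ spot 31B06 was the only member spot above 0 on all 22 arrays, 1 of 21 spots or 4.76%, against 18.5% over all spots. IRF1 95H11, SOD2 32C13 and SOD2 52P18 were each above 0 on 21 of 22 arrays and CYLD 30A08 on 20. At the other end, RELA 95F07 was above 0 on 7 of 22 arrays, CYLD 33H01 on 9, and CYLD 68L21 and SOD2 51G06 on 11 each. These 4 spots, above 0 on at most 50% of the arrays, are 19.0% of the members, against 34.0% over all spots. NFKBIB 95A02 was above 0 on 5 of 5 THP-1 control and 7 of 7 THP-1 TNF arrays but on 2 of 5 arrays in either CaCo-2 group. TNFAIP8 84J04 was above 0 on 5 of 5 and 6 of 7 THP-1 arrays and on 1 of 5 and 2 of 5 CaCo-2 arrays. These were the 2 of 21 member spots whose share of arrays above 0 was at least 50 points higher in THP-1, a share met by 2.30% of all spots. No member spot reached this margin in the other direction, which 2.40% of all spots did. IRF1 62D12 came nearest to it. In CaCo-2 this spot was above 0 on 5 of 5 arrays without TNF and on 3 of 5 with it. In THP-1 it was above 0 on 1 of 5 without TNF and on 3 of 7 with it. A deposited sum was above 0 beside 2 of the 6 CaCo-2 readings of NFKBIB at 0 and beside 3 of the 7 of TNFAIP8 84J04. Each was about the size of a single-column reading, and the other readings had a sum at 0 or none.

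**Figure D1:**
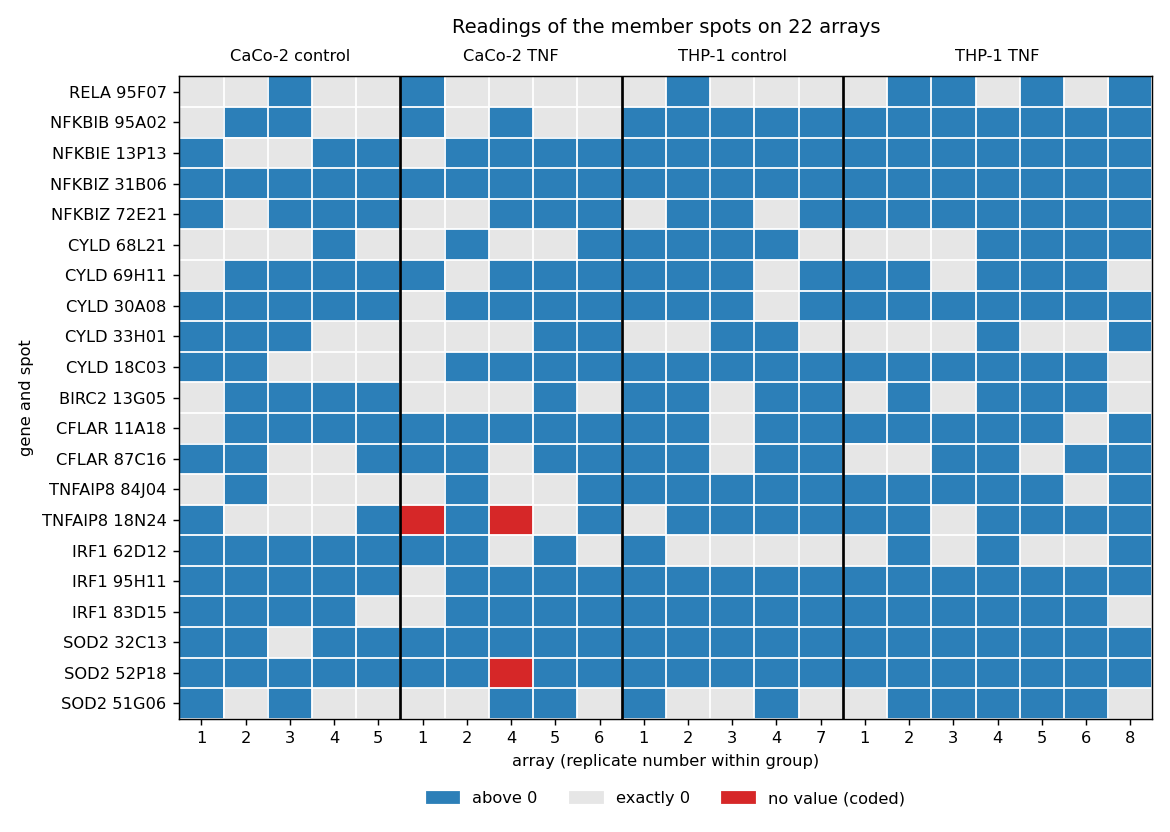
Each row is a member spot and each column 1 of the 22 arrays, by group and replicate number. Blue marks a reading above 0, grey an exact 0 and red a code for no value. NFKBIZ 31B06 is blue throughout, and NFKBIB 95A02 is blue on all 12 THP-1 arrays.

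RELA, the transactivating subunit of the most common NF-kB dimer, could not be tested at all. Its spot 95F07 read 0.112 on CaCo-2 control replicate 3, 0.161 on CaCo-2 TNF replicate 1 and 0.127 on THP-1 control replicate 2, and 0 on the other 4 arrays of each of these groups. Among THP-1 TNF arrays it was above 0 on 4 of 7, between 0.117 and 0.136 with a median of 0.118. Apart from the CaCo-2 TNF reading of 0.161, these readings lay at 0.112 to 0.136, within the range of the lowest values above 0 taken over different arrays. They were not the lowest of their own arrays wherever BIRC2 13G05 also read above 0. BIRC2 read lower there, such as 0.108 against 0.112 on CaCo-2 control replicate 3. With 1 of 5 arrays above 0 in each of 3 groups, no comparison of RELA was possible. The gene lies on chromosome 11, from 65653601 to 65663857 in GRCh38.p14.

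NFKBIB and NFKBIE encode IkB beta and IkB epsilon, which hold NF-kB dimers in the cytoplasm. In THP-1, NFKBIB 95A02 had a median of 0.182 (0.174 to 0.192) on control arrays and of 0.184 (0.174 to 0.193) after TNF. The groups overlapped, with a log2 difference of 0.034 ± 0.021 (SE). The 4 CaCo-2 readings above 0 ran from 0.165 to 0.216 and were too few to test. NFKBIE 13P13 read 0.181, 0.182, 0.194, 0.184 and 0.188 on the 5 THP-1 control arrays and had a median of 0.180 (0.162 to 0.190) on the 7 TNF arrays. Its log2 difference after TNF was -0.041 ± 0.019 (SE) in THP-1, with an unadjusted p of 0.0548 and an adjusted p of 1.00 in limma. In CaCo-2 it read 0.198, 0.158 and 0.140 on the 3 control arrays above 0 and 0.196, 0.162, 0.165 and 0.152 on the 4 TNF arrays above 0. The CaCo-2 readings spread over a wider range than the THP-1 readings, with control replicate 1 and TNF replicate 2 the highest.

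NFKBIZ encodes IkB zeta, an inducible nuclear member of the IkB family that acts as a coregulator of a subset of NF-kB targets. Its spot 31B06 read 0.323, 0.231, 0.250, 0.253 and 0.206 on the 5 CaCo-2 control arrays and 0.297, 0.297, 0.248, 0.253 and 0.220 on the 5 CaCo-2 TNF arrays. In THP-1 it read 0.274, 0.301, 0.326, 0.305 and 0.295 on control arrays, and had a median of 0.306 (0.265 to 0.330) on the 7 TNF arrays. Of the 10 CaCo-2 arrays 7 lay below every THP-1 array, and the other 3 were control replicate 1 and TNF replicates 1 and 2. After normalization the mean log2 level was -1.74 ± 0.08 (SD, n = 7) in THP-1 TNF, -1.78 ± 0.07 (SD, n = 5) in THP-1 control, -1.93 ± 0.04 (SD, n = 5) in CaCo-2 TNF and -1.94 ± 0.07 (SD, n = 5) in CaCo-2 control. In this order the 2 groups of a line did not differ beyond their spread, and THP-1 control was not tested against CaCo-2 TNF.

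The second NFKBIZ spot, 72E21, was above 0 on 4 of 5 CaCo-2 control, 3 of 5 CaCo-2 TNF, 3 of 5 THP-1 control and 7 of 7 THP-1 TNF arrays. The THP-1 control readings above 0 were 0.223, 0.218 and 0.216, and the TNF readings had a median of 0.229 (0.212 to 0.257). In THP-1 its log2 difference after TNF of 0.13 ± 0.06 (SE, 95% interval 0.0036 to 0.26) had the lowest unadjusted p of the members, 0.0449, and an adjusted p of 1.00 in limma. The TNF and control readings overlapped. In the spot 31B06 of the same gene the difference was 0.035 ± 0.042 (SE), with an interval of -0.055 to 0.13. In CaCo-2 the log2 differences after TNF were -0.0079 ± 0.0278 (SE) in 72E21 and 0.0091 ± 0.0352 (SE) in 31B06.

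CYLD, a deubiquitinase that removes the ubiquitin chains on which the pathway is assembled and so restrains it, has 5 spots. Spot 30A08 was above 0 on 20 of 22 arrays, 69H11 and 18C03 on 17 each, 68L21 on 11 and 33H01 on 9. After TNF the 4 spots tested in THP-1 had log2 differences between -0.013 and 0.0034, and the 2 spots tested in CaCo-2 had 0.024 ± 0.034 (SE) in 69H11 and 0.039 ± 0.027 (SE) in 30A08. The 2 THP-1 control readings of 33H01 above 0 stood far apart, at 0.126 on replicate 3 and 0.374 on replicate 4. Replicate 3 is a column at the scale of the sums with no partner, and it was divided by 3. Its share of spots at 0, 32.1%, was like that of single columns, whereas the other summed columns had 17.2% to 22.4%. Whether it is a sum of 3 components is thus not certain. Replicate 3 read 0.342 times the median of the other THP-1 arrays at this spot. Its readings of the other member spots above 0 were between 0.971 and 1.15 times that median, apart from 0.675 in TNFAIP8 84J04. A component at 0 would lower a sum divided by 3, whereas a single column was taken to be the middle component. Whether components were at 0 in CYLD 33H01 and TNFAIP8 84J04 on this array was not tested.

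BIRC2 encodes cIAP1, a ubiquitin ligase of the TNF receptor complex. Spot 13G05 was among the dimmest, with readings above 0 from 0.101 to 0.124, and was above 0 on 4 of 5 CaCo-2 control, 1 of 5 CaCo-2 TNF, 4 of 5 THP-1 control and 4 of 7 THP-1 TNF arrays. Its log2 difference after TNF in THP-1 was -0.033 ± 0.046 (SE). In CaCo-2 the step from 4 arrays to 1 rests on readings of 0. Beside the 5 readings of 0 in CaCo-2, 2 sums were above 0, 1 in either group, and the step was not tested.

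CFLAR encodes cFLIP, which blocks caspase-8, and TNFAIP8 is a TNF-induced protein with an anti-apoptotic role. CFLAR spot 11A18 had medians of 0.140 and 0.155 in CaCo-2 control and TNF, and 0.149 and 0.144 in THP-1 control and TNF. CFLAR spot 87C16 had medians of 0.285, 0.331, 0.319 and 0.312 in the same order. The log2 differences after TNF of the 2 spots were 0.026 and 0.032 in CaCo-2 and 0.0049 and -0.0022 in THP-1, and all 4 intervals included 0. TNFAIP8 84J04 read 0.153, 0.164, 0.109, 0.158 and 0.163 on the THP-1 control arrays, and the 6 TNF readings above 0 had a median of 0.161 (0.154 to 0.165). The low control reading is replicate 3, the unpaired column divided by 3. The log2 difference after TNF was 0.13 ± 0.08 (SE) with that array and 0.031 without it. TNFAIP8 18N24 had one of 0.0072 ± 0.0336 (SE) in THP-1, and in CaCo-2 neither spot could be tested.

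IRF1 is a transcription factor induced by interferon and by NF-kB, and its 3 spots gave differences of both signs. Spot 95H11, above 0 on 21 arrays, read 0.170, 0.196, 0.181, 0.176 and 0.168 on THP-1 control arrays and had a median of 0.187 (0.164 to 0.197) on TNF arrays, a log2 difference of 0.055 ± 0.039 (SE). In CaCo-2 it read 0.194, 0.164, 0.173, 0.174 and 0.137 on control arrays and 0.198, 0.171, 0.175 and 0.145 on the 4 TNF arrays above 0, a log2 difference of -0.013 ± 0.029 (SE). The groups overlapped in both lines. Spot 83D15 gave -0.014 ± 0.026 (SE) in THP-1 and 0.013 ± 0.034 (SE) in CaCo-2. Spot 62D12 was tested in CaCo-2 alone, at 0.0094 ± 0.0325 (SE), since it was above 0 on 1 of 5 THP-1 control arrays.

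SOD2, the mitochondrial manganese superoxide dismutase, is a widely used NF-kB target. Spot 32C13 read 0.538, 0.518, 0.553, 0.496 and 0.523 on THP-1 control arrays and had a median of 0.531 (0.490 to 0.551) after TNF. In CaCo-2 it read 0.543, 0.457, 0.490 and 0.388 on the 4 control arrays above 0 and 0.526, 0.533, 0.475, 0.488 and 0.398 after TNF. Spot 52P18 read 0.570, 0.507, 0.560, 0.544 and 0.435 on CaCo-2 control arrays and 0.576, 0.578, 0.542 and 0.455 on the 4 CaCo-2 TNF arrays with a value. In THP-1 this spot read 0.573, 0.587, 0.660, 0.657 and 0.574 on control arrays and had a median of 0.574 (0.522 to 0.681) after TNF. The TNF and control readings overlapped for both spots in both lines. The log2 differences after TNF were 0.0040 ± 0.0321 (SE) in THP-1 and -0.016 ± 0.035 (SE) in CaCo-2 for 32C13, and -0.063 ± 0.065 (SE) and 0.0065 ± 0.0304 (SE) for 52P18. SOD2 51G06 was above 0 on 2 arrays in each of the 3 smaller groups and on 5 of 7 THP-1 TNF arrays, between 0.145 and 0.175, and was not tested.

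**Figure D2:**
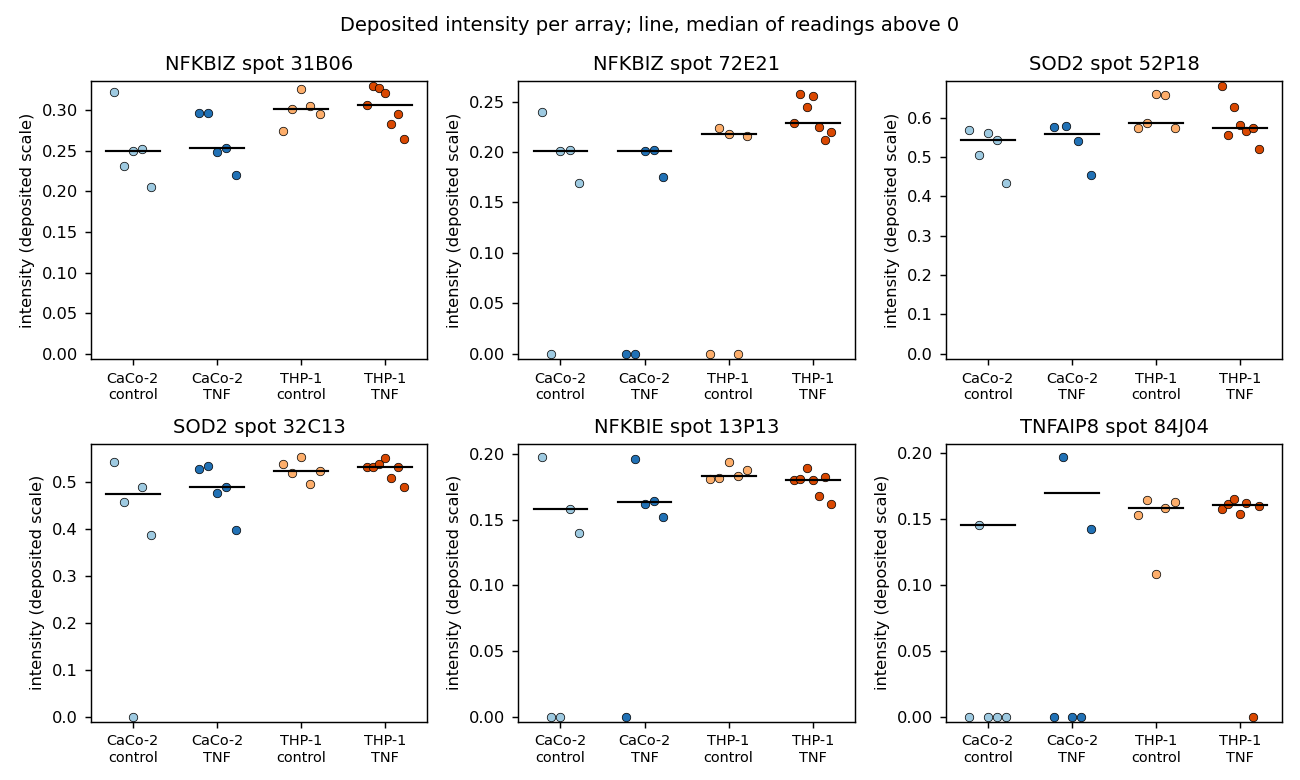
Points are deposited intensities (linear axis) of single arrays for 6 member spots in the 4 groups, and lines are medians of the readings above 0. The 6 spots were chosen after their values were seen. The TNF and control points of a line overlap in every panel, and points at 0 occur in 4 of the 6.

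Taken over the members, no response to TNF passed the threshold in either line. A spot was tested where at least 3 arrays of each group read above 0, and was called at a Benjamini-Hochberg adjusted p under 0.05 over all spots tested. In CaCo-2, 12 member spots of 6 genes were tested and 0 were called, where 0.0% of 19479 spots were called. In THP-1, 17 member spots of 9 genes were tested and 0 were called, where 0.0% of 21989 spots were called. At an unadjusted p under 0.05 in limma there were 0 member spots in CaCo-2, against 2.46% of all spots, and 1 in THP-1, against 2.47%. Normalized values that did not overlap between the groups were found in 0 of 12 member spots in CaCo-2, against 1.75% of all spots, and in 0 of 17 in THP-1, against 0.996%. The median log2 difference of the tested member spots was 0.011 in CaCo-2, with 0.0087 over all spots tested, and 0.0034 in THP-1, with 0.0014 over all.

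The intervals give the sizes that these arrays leave room for in normalized readings above 0. Many member readings lay near the lowest values above 0, and how background was corrected was not given. The intervals therefore do not bound the change in transcript. In CaCo-2 the 95% intervals of the 12 member spots lay between -0.094 and 0.12 on the log2 scale. In THP-1 those of the 17 spots lay between -0.20 and 0.30, the widest being TNFAIP8 84J04, which includes the low reading of control replicate 3. A difference that misses the threshold does not show that a gene did not respond. The spots left untested, RELA among them, have no interval at all.

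**Figure D3:**
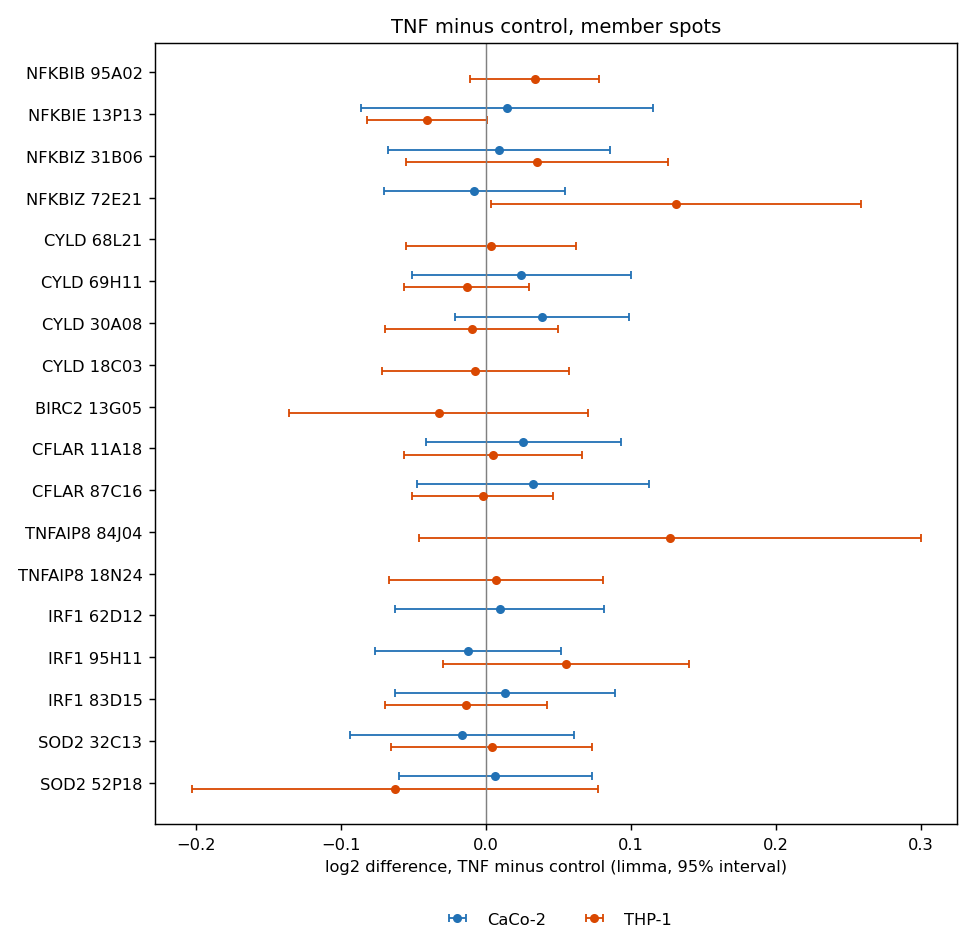
Points are log2 differences, TNF minus control, of the member spots tested in CaCo-2 (blue) and THP-1 (orange), and bars are 95% intervals from limma. All intervals but that of NFKBIZ 72E21 in THP-1 include 0, and no spot passed after adjustment.

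The CaCo-2 arrays fall into sets that cut across treatment. Control replicate 1 and TNF replicates 1 and 2 deviated together from their group means, with a correlation of at least 0.80 over spots, and had the highest median intensities, from 0.228 to 0.230. Control replicate 5 and TNF replicate 6 deviated together as well, with a correlation of 0.82, and had the lowest, 0.162 and 0.169. Between THP-1 arrays the highest such correlation was 0.54. No label names a batch, so the sets are groups of arrays with like deviations and were defined from the data. Within the brighter set, NFKBIZ 31B06 gave a log2 difference after TNF of -0.091, within the dimmer pair 0.078, and within the other 5 arrays -0.0030. For SOD2 32C13 the same 3 values were -0.086, 0.020 and -0.011. Of the 14 member spots with a value in at least 2 sets, 12 had values of both signs. The other 2 were above 0 in every set, CYLD 30A08 at 0.038, 0.065 and 0.022 and TNFAIP8 18N24 at 0.10 and 0.073, where the brighter set and the dimmer pair hold 1 control array each. With the set as a term in the fit 0 member spots were called.

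Between the lines 1 member spot was called, NFKBIZ 31B06, which was lower in CaCo-2 among TNF arrays. The gene lies on chromosome 3, from 101827990 to 101861022 in GRCh38.p14, and the part of its transcript that the spot covers was not analysed here. Among TNF arrays its log2 difference, CaCo-2 minus THP-1, was -0.19 ± 0.04 (SE, 95% interval -0.26 to -0.11), a 1.14-fold difference, with an adjusted p of 0.0227 in limma. The normalized values of the 5 CaCo-2 TNF arrays, from -1.98 to -1.88, lay below those of the 7 THP-1 TNF arrays, from -1.84 to -1.64, while the deposited intensities overlapped. Among control arrays the difference was -0.16 ± 0.04 (SE) and did not pass, at an adjusted p of 0.106 in limma, and the normalized values overlapped. In RNA of whole cultures, a lower level per cell and fewer cells with the transcript cannot be told apart. No label names a batch, so a difference in how the arrays of either line were handled cannot be told apart either. The TNF-array call was lost without THP-1 TNF replicate 1, at an adjusted p of 0.0531, without THP-1 TNF replicate 3, at 0.0522, and without CaCo-2 TNF replicate 4, at 0.0505. It was also lost with no normalization, at 0.308, with readings of 0 raised to the lowest value, at 0.0821, and with the mean of paired columns, at 0.101. The difference was below 0 in all 25 alternatives and passed in 19 of them. The control-array difference passed in limma without CaCo-2 control replicate 1, at an adjusted p of 0.0169, with array weights, at 0.0351, and with only the CaCo-2 arrays outside the sets, at 0.0418. The other NFKBIZ spot, 72E21, gave -0.15 ± 0.06 (SE) among TNF arrays, at an adjusted p of 0.163 in limma, and -0.011 ± 0.021 (SE) among control arrays.

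In the TNF arrays 1 of 13 tested member spots was called, where 2.14% of 20750 spots were called and 0.381% were called lower in CaCo-2, and 4 had an unadjusted p under 0.05, where 20.4% of all spots did. In the control arrays 0 of 12 were called, where 0.386% of 19420 spots were called, and 3 had an unadjusted p under 0.05, where 17.7% of all did. Of the 444 spots called between TNF arrays 82.2% were higher in CaCo-2, a share of 39.7% with no normalization and of 16.2% with array medians subtracted. The balance of directions among the calls thus turned with the scaling. NFKBIZ 31B06 was lower in CaCo-2 under both, at -0.21 and -0.25 on the log2 scale, as were most of the calls. It was called with array medians subtracted but not with no normalization, at an adjusted p of 0.308 in limma.

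Other differences between the lines missed the threshold. SOD2 32C13 differed by -0.11 ± 0.03 (SE, log2) among TNF arrays, with normalized groups that did not overlap, at an adjusted p of 0.0678 in limma, and by -0.086 ± 0.041 (SE) among control arrays. It passed among TNF arrays in 5 of 25 alternatives, such as without THP-1 TNF replicate 8, at 0.0235 in limma. SOD2 52P18 differed by -0.16 ± 0.05 (SE) among control arrays, without overlap in the normalized values or in the deposited intensities, at an adjusted p of 0.167 in limma, and by -0.093 ± 0.056 (SE) among TNF arrays. NFKBIE 13P13 differed by -0.10 ± 0.03 (SE) among control arrays, at an adjusted p of 0.162 in limma, and by -0.045 ± 0.030 (SE) among TNF arrays. Its normalized control groups did not overlap, while CaCo-2 control replicate 1 had the highest deposited intensity of all control arrays. Normalized groups without overlap were found in 2 of 12 member spots in the control comparison and 2 of 13 in the TNF comparison, where 9.19% and 6.57% of all spots tested had them. All 4 were lower in CaCo-2, a direction found without overlap in 1.31% and 0.607% of all spots.

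In CYLD and CFLAR the values of the tested spots among TNF arrays lay above 0, and 4 of these 5 spots had a value below 0 under at least 1 of 23 alternatives. CFLAR 87C16 went to -0.033 with array medians subtracted, and CFLAR 11A18 to -0.014 with the mean of paired columns. CYLD 18C03 went to -0.0005 with no normalization and to -0.24 with the mean of paired columns, and CYLD 30A08 to -0.095 with readings of 0 raised to the lowest value. The mean of paired columns averages a single column with the sum divided by 3. In 18C03 the 0 of CaCo-2 TNF replicate 1, beside a sum of 0.145, thereby entered as a low reading above 0. CYLD 69H11 differed by 0.086 ± 0.028 (SE, log2) among TNF arrays, at an adjusted p of 0.118 in limma, and 30A08 by 0.057 ± 0.029 (SE), at 0.288. Without THP-1 TNF replicate 8, which had the highest share of spots at 0, CYLD 30A08 passed at an adjusted p of 0.0315 in limma, and over all 23 alternatives it passed in 2. CFLAR 87C16 differed by 0.062 ± 0.031 (SE) and 11A18 by 0.049 ± 0.032 (SE) among TNF arrays. The median log2 difference of the tested member spots was -0.0002 among control arrays and 0.019 among TNF arrays, against 0.021 and 0.031 over all spots tested, and the members spread to both sides of it.

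**Figure D4:**
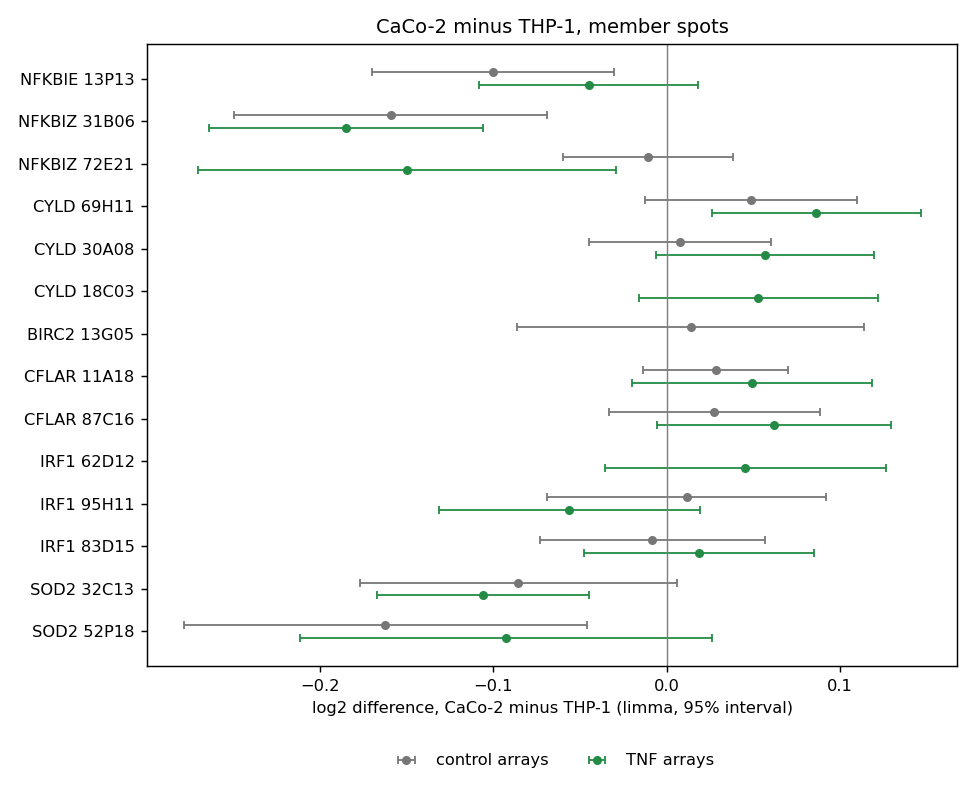
Points are log2 differences, CaCo-2 minus THP-1, of the member spots tested among control arrays (grey) and TNF arrays (green), and bars are 95% intervals from limma. NFKBIZ 31B06 lies at -0.16 and -0.19, and its value among TNF arrays is the only one that passed after adjustment.

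An interaction fitted over all 22 arrays tested whether the 2 lines responded differently to TNF. Of 11 member spots tested 0 were called, where 0.0% of 16931 spots were called, and 0 had an unadjusted p under 0.05 in limma, where 2.43% of all spots did. NFKBIZ 72E21 came closest, at -0.14 ± 0.07 (SE, log2), with an unadjusted p of 0.0720 and an adjusted p of 1.00 in limma. NFKBIZ 31B06 gave -0.026 ± 0.058 (SE). The comparisons share arrays, so their values are not independent of each other.

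The pattern of NFKBIZ 31B06 over the 22 arrays was most like that of 3 spots among 2838 searched, those of VRK1, a kinase, with a Pearson r of 0.893, XRCC4, a DNA repair protein, with 0.883, and HCG9, a non-coding RNA of the HLA complex, with 0.877. These values describe arrays that share a line, a treatment and the sets above, and each is the top of a search.

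Around the members, 2 further lists place them in the pathway. Of 40 other NF-kB signalling genes, such as kinases, adaptors and ubiquitin ligases, 23 had 47 spots of their own, and 0 were called in any of the 5 comparisons. After TNF the median log2 difference of this list was 0.0056 over 26 spots in CaCo-2 and 0.0009 over 34 spots in THP-1. The smallest p belonged to IKBKG, the regulatory subunit of the IkB kinase, in CaCo-2, at 0.076 ± 0.026 (SE), and to TAB2, an adaptor of the kinase TAK1, in THP-1, at 0.15 ± 0.05 (SE), each with an adjusted p of 1.00 in limma. Unadjusted p-values under 0.05 were found for 2 of 26 spots in CaCo-2, where 2.46% of all spots had one, and for 1 of 34 in THP-1, where 2.47% did. Between the lines 3 of 29 spots among control arrays and 3 of 27 among TNF arrays had one, where 17.7% and 20.4% of all spots did, with OTULIN, a linear deubiquitinase, at 0.046 ± 0.018 (SE), and TRAF6, a ubiquitin ligase, at 0.12 ± 0.03 (SE), having the smallest. TRAF6 also had the smallest p of the list in the interaction.

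Of 30 further NF-kB targets, such as cytokines and adhesion molecules, 6 had 9 spots, and 0 were called after TNF in either line. The TNF gene itself had the smallest p in THP-1, at 0.44 ± 0.12 (SE, log2), with an unadjusted p of 0.00278 and an adjusted p of 1.00 in limma, and IER3, an immediate early gene, in CaCo-2, at 0.069 ± 0.040 (SE). Between the lines 3 of 8 spots were called among TNF arrays, where 2.14% of all spots were called. JUNB 22G16, an AP-1 subunit, was lower in CaCo-2 by a log2 difference of -0.19 ± 0.04 (SE), with an adjusted p of 0.0237 in limma. TNF 95G09 was lower by -0.49 ± 0.11 (SE), with an adjusted p of 0.0412 in limma, and BCL2L1 50E10, an anti-apoptotic gene, was higher by 0.13 ± 0.03 (SE), at 0.0353. TNF and BCL2L1 are named here because they were called, after their values were seen. The other tested spots of JUNB and BCL2L1, 89L10 and 52I13, gave -0.082 ± 0.046 (SE) and 0.068 ± 0.048 (SE) and were not called. Under alternatives JUNB 22G16 was called in 18 of 24, BCL2L1 50E10 in 14 of 25 and TNF 95G09 in 11 of 24, each with the sign kept. With single arrays left out, JUNB lost its call without THP-1 TNF replicates 1, 3 or 4, BCL2L1 without THP-1 TNF replicates 1, 2, 3, 4 or 6 or CaCo-2 TNF replicates 4 or 6, and TNF without THP-1 TNF replicates 1 to 5 or CaCo-2 TNF replicates 2, 4, 5 or 6, at adjusted p-values from 0.0534 to 0.0810 in limma. Among control arrays 0 of 5 spots were called, with BCL2L1 50E10 at 0.16 ± 0.04 (SE) having the smallest p, and in the interaction JUNB 22G16 had the smallest p of 4 spots, with 0 called.

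The labels of the 2 lines were set against defining markers among control arrays. Of 13 monocytic markers 4 had a spot, and LAPTM5, a lysosomal protein of blood cells, was above 0 on 5 of 5 THP-1 and 0 of 5 CaCo-2 control arrays. The other 3, CSF1R, PTPRC and TYROBP, were tested and 0 were called, at log2 differences, CaCo-2 minus THP-1, of 0.030 in CSF1R, 0.030 in TYROBP and -0.023 in PTPRC. The summed intensity of the 4 spots was 0.511 to 1.05 in CaCo-2 and 1.24 to 1.31 in THP-1, with readings of 0 entered as 0, as on all 5 CaCo-2 control arrays for LAPTM5 and on 2 of 5 for CSF1R. Of 14 epithelial markers 4 had 7 spots, 5 of them tested and 0 called, with sums of 1.82 to 2.41 in CaCo-2 and 1.97 to 2.46 in THP-1, which overlap. ELF3, an epithelial transcription factor, went both ways: spot 88A17 was above 0 on 5 of 5 CaCo-2 and 0 of 5 THP-1 control arrays, and spot 85B06 on 0 of 5 and 5 of 5. VIL1, a brush border protein, had the smallest adjusted p among the tested marker spots, 0.111 in limma, at 0.085 ± 0.022 (SE, log2) in favour of CaCo-2. Among control arrays LAPTM5 and ELF3 88A17 were thus above 0 in the line they mark alone, ELF3 85B06 in the other line alone, and no tested marker spot passed.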

How the data were processed

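The authors deposited array intensities, linear values with no unit named, for 33 columns of 34560 spots. RNA was labelled with 33P and hybridised to nylon membranes, per the labels' protocols. How images were quantified, corrected for background and scaled was not given in the sources used here. Columns at 3 times the scale of the others repeat single columns: 9 pairs were counted once through the single column, and 1 pair whose columns carry opposite CaCo-2 labels (control and TNF) was omitted. THP-1 control replicate 3, a column at the scale of the sums with no partner, was taken as a sum and divided by 3. Its share of spots at 0, 32.1%, was like that of single columns, whereas the other summed columns had 17.2% to 22.4%. Whether it is a sum was not tested. Codes at or below -1 were set to missing. Values were quantile normalized on the log2 scale, with 0 at the array's lowest positive value, and readings of 0 were then missing in the fit. Two-sided tests were made with limma 3.58.1 in R 4.3.3 (lmFit, then eBayes with a trend in the variance), with Benjamini-Hochberg adjustment and a threshold of 0.05, in spots with at least 3 arrays above 0 in each group. The number of arrays limits the precision.

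The fit was tested on simulated arrays. For a log2 change of 0.2 it recovered 62% of changed spots in the CaCo-2 TNF comparison of 19479 spots and 60% in the THP-1 TNF comparison of 21989 spots, and for a change of 0.1 it recovered 0% and 22%. Many spots were changed at once there, by up to 1 on the log2 scale, and arrays were drawn independently, without the CaCo-2 sets. In the real TNF comparisons 0 spots were called, so a single changed spot faces a stricter cutoff. These shares are therefore not the chance of calling a member spot. All 21 member spots matched RefSeq gene identifiers and symbols of GRCh38.p14. All member spots are named. Other genes were named by list, 1 spot per list and comparison with the smallest p, and 3 by likeness to a member spot above 0 on every array. Members, lists and the treatment of 0 were chosen with earlier results of these data known. Alternatives concerned normalization, 0, filters, paired columns, the pair of 2 labels, the fit and each array left out. The 4 that concern the CaCo-2 sets, defined by a correlation above 0.7, were chosen after seeing the data.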

Additional observations from a re-analysis of the deposited data

Results flagged for a closer look

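In 57 sets of 4 to 7 readings above 0 (1 spot in 1 group), 7 had a reading far from the others by Dixon's criterion, and chance alone gives about 2.85. All levels are normalized log2 intensities. THP-1 control replicate 3, the unpaired column divided by 3, gave 2 of them. In NFKBIB 95A02 it read -2.44, above the others at -2.52 to -2.50, and in TNFAIP8 84J04 it read -3.15, below the others at -2.70 to -2.65. THP-1 TNF replicate 8, the array with the most readings of 0, gave 2 in CYLD. It read -2.14 in spot 68L21, against -2.25 to -2.24, and -2.44 in spot 30A08, against -2.59 to -2.56. In deposited intensity both lay within the other THP-1 TNF readings above 0. The values were 0.212 within 0.210 to 0.222 in 68L21 and 0.171 within 0.165 to 0.176 in 30A08. TNFAIP8 18N24 read -1.97 on THP-1 TNF replicate 5, against -2.13 to -2.11. SOD2 32C13 read -0.94 on CaCo-2 control replicate 1, an array of the brighter set, against -1.07 to -1.06. SOD2 51G06 read -2.74 on THP-1 TNF replicate 6, against -2.73 to -2.72, a gap that is small in size because the other 4 readings lay close together. Its deposited intensity, 0.155, lay within the others, at 0.148 to 0.161.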

How the results depend on the processing

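No member spot was called after TNF in either line, or in the interaction, under any alternative run. Between control arrays 1 member spot, NFKBIZ 31B06, was called with array weights and with only the CaCo-2 arrays outside the sets, and 0 to 1 with an array left out. Between TNF arrays the 1 call became 0 with no normalization, with 0 raised to the lowest value and with the mean of paired columns, 2 with array medians subtracted, with the brighter 50% of spots and with the pair of 2 labels counted as CaCo-2 TNF, 3 with array weights, and 0 to 3 with an array left out. Of 1519 member values under alternatives 120 changed sign, 0 of them called in either fit. Over all spots, 0 raised to the lowest value called 15 in CaCo-2 and 5 in THP-1 after TNF, and the mean of paired columns 16 and 1, and 5 in the interaction. Leaving out an array called 0 to 1 in THP-1, the 1 without TNF replicate 6. Between control arrays 75 spots became 5 with no normalization, 3 with medians subtracted, 155 with 0 raised, 20 with at least 2 arrays above 0, 24 with pair means, 303 with the pair of 2 labels as control, 309 with all groups in 1 fit, 21 with no variance trend, 664 with array weights, 640 with only the CaCo-2 arrays outside the sets, and 8 to 946 with an array left out, the highest without CaCo-2 control replicate 1. Between TNF arrays 444 became 126 with no normalization, 76 with pair means, 834 with the pair of 2 labels, 732 with all groups, 289 with no trend, 2728 with weights, and 113 to 1738 with an array left out, the highest without THP-1 TNF replicate 8. Same-numbered control and TNF arrays deviated with correlations from -0.53 to 0.82, the highest in CaCo-2 replicate 1, and CaCo-2 control replicate 5 deviated most like TNF replicate 6. The numbers were therefore not taken as pairs in the main fit, and whether some of them pair arrays is not known. The replicate block gave 210 calls between TNF arrays and 95 between control arrays, and 1 and 0 member spots. The cause of these moves was not tested. Fits on arrays outside the sets used a minimum of 2 arrays above 0 in place of 3. Depth is set by signal over background: RELA and 3 other member spots were above 0 on at most 50% of arrays.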
